A study of Homo sapiens with 6 samples.

Results

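The genes described here encode the initiation and elongation factors of translation, with the kinases, repressors and methyltransferases named after them. They were the genes whose symbol starts with EIF or EEF, without hyphenated read-through names, that had at least 10 counts in 2 or more of the 6 libraries. Of 71 such names among the 19672 genes listed, 67 met this rule. The other 4 were EIF4EBP3, with 0 to 3 counts, EIF4E3, with 0 to 13 counts, and EIF1AY and EIF4E1B, each at 0 in all 6 libraries. All 67 passed the low-count filter of the test, which kept 13299 genes.

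Messenger RNA was measured in SW620, an established epithelial line from a human colorectal cancer, after stable lentiviral silencing of DKC1. The product of DKC1, dyskerin, is the catalytic subunit of the H/ACA ribonucleoproteins, which turn uridines of ribosomal RNA into pseudouridines. The groups were cells with a non-targeting scrambled shRNA (scramble) and 2 DKC1 knockdown lines, C3 and C6, each with 2 libraries, and all of them had been kept under puromycin. Each knockdown line is a single stably transduced line, and the sources used here do not say which of the study's shRNAs it carries. The libraries of a group are titled biological replicates with no word on separate cultures, so p-values measure only the spread between these libraries, which may be technical.

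DKC1 itself was at 320 and 315 CPM (counts scaled to a common library size with edgeR's TMM factors) in scramble, 144 and 149 CPM in C3, and 70.3 and 67.1 CPM in C6. Total counts per library were between 26077966 and 31021000, and a floor of 3 counts was worth 0.0968 to 0.114 CPM, which covers counting error alone. The spread within groups was above sampling noise (chi-square per df 6.08 to 8.3 in the 3 groups over all genes, and 16.25 to 27.34 over the 67 genes). These ranges cannot be set against each other, because the measure grows with the count and the 67 genes include some with very high counts. Of 11 markers of colorectal epithelium, 9 were at 1 CPM or more in every library, with KRT8, KRT18 and KRT19 leading and CDX1 at 0. Several of these markers differed between the lines: mean CDH1 was 225, 58.1 and 183 CPM in scramble, C3 and C6, VIL1 292, 370 and 138 CPM, and CEACAM5 2.12, 0.378 and 8.53 CPM. Of 12 markers of fibroblasts, blood and endothelium, 4 were at 1 CPM or more in every library, their summed level was 38.8 to 58.4 CPM, and COL1A2, COL3A1, DCN, PTPRC, CD3E and CDH5 were among those at 0. The macrophage marker CD68, 1 of these 4, was at 16, 10.7 and 36.5 CPM in scramble, C3 and C6. The fibroblast marker LUM was at 16.2, 24.4 and 11.6 CPM. COL1A1 stood at 3.11, 3.08 and 1.58 CPM, and the endothelial VWF at 4.7, 2.6 and 5.07 CPM. The part of these differences in the results below was not tested. These are bulk samples, in which fewer cells of a type and less RNA per cell cannot be told apart.

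In initiation, eIF2 brings the initiator tRNA to the small ribosomal subunit, eIF3 holds the scanning complex together, and the eIF4F proteins (the cap-binding eIF4E, the scaffold eIF4G and the helicase eIF4A) recruit the mRNA. Phosphorylation of eIF2 by 4 stress kinases lowers initiation at most mRNAs, and the 4E-binding proteins, controlled by mTORC1, keep eIF4E from eIF4G. In elongation, eEF1A delivers aminoacyl-tRNA, eEF1B recharges it with GTP, and eEF2 moves the ribosome along. Many mRNAs of elongation factors begin with a cytosine and a run of pyrimidines (a 5′ TOP tract), through which mTORC1 and LARP1 control their translation, and several of these genes carry small nucleolar RNAs in their introns, some of them H/ACA RNAs that dyskerin binds.

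Starts from RefSeq (GRCh38.p14) were available for 52 of the 67 genes, and 13 of these (25.0%) had a C at the first transcribed base followed by pyrimidines, for a run of at least 5 bases. Among all 27305 genes with a start, 1404 (5.14%) had such a run. The starts below are examples and do not stand for all genes. The first 4 begin with a C and a run of at least 5 pyrimidines. The next pair has a shorter run, and EIF3I begins with a purine. Each of the first 4 was called lower in a line, and each of the others higher. EIF2S3 and EIF3K, not shown, also have a run of at least 5 and were called higher, in C6 and in C3. Each window holds 15 bases before and 15 from the start, 5′ to 3′ on the gene's strand, and capitals mark the run that begins at the start.
EEF1A1, chr6:73521018-73521047, minus strand: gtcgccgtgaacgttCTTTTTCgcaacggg
EEF2, chr19:3985449-3985478, minus strand: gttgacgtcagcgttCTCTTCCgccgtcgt
EIF4B, chr12:53006441-53006470, plus strand: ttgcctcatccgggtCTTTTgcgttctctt
EIF4A2, chr3:186783562-186783591, plus strand: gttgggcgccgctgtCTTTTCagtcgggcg
EIF4A1, chr17:7572810-7572839, plus strand: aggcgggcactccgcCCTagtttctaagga
EIF4H, chr7:74174341-74174370, plus strand: ccttcctcgctcaccCTggttcctctcgga
EIF3I, chr1:32222392-32222421, plus strand: accttttccggtcttactcacgttgcggcc
EIF4A1 and EIF4A2 encode closely related helicases, and their starts differ: the run is 3 bases in EIF4A1 and 6 in EIF4A2.

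Of the genes, 5 hold H/ACA small nucleolar RNAs in the GENCODE 29 annotation of GRCh38, namely EEF1B2, EIF3A, EIF4A1, EIF4A2 and EIF5. The most were in EIF4A2, with SNORA81, SNORA63 and SNORA4, followed by EIF4A1, with SNORA48 and SNORA67. An H/ACA RNA ends with the letters ACA close to its 3′ end, which are in capitals in the examples below, printed because their host genes moved differently in the knockdown lines.
SNORA63 in EIF4A2, chr3:186787300-186787431, plus strand: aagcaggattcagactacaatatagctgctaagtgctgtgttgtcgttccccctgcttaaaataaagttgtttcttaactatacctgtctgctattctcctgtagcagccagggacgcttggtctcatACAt
SNORA48 in EIF4A1, chr17:7574713-7574847, plus strand: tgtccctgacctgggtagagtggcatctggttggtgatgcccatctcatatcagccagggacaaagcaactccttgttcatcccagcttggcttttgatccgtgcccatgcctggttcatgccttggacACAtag
The libraries were made from poly(A) RNA, and the small RNAs themselves were not measured here.

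The genes of translation factors moved in both directions, mostly by less than 1.5-fold, and more of them were called in C6 than in C3, as over all genes. Against scramble, 19 of 67 were called in C3 by edgeR's quasi-likelihood test (Benjamini-Hochberg adjusted p under 0.05 over 13299 genes), 16 higher and 3 lower. EIF3C and EIF3CL, whose transcripts are near-identical, both count among the 16. Over all genes tested 24.3% were called in C3, 12.4% higher and 11.9% lower, beside 28.4% of the factor genes. In C6, 33 were called, 18 higher and 15 lower, or 49.3%, beside a background of 46.7% (23.8% higher and 22.8% lower). For the mean of both lines, 29 were called, 18 higher and 11 lower, or 43.3%, beside 32.9% (16.6% higher and 16.3% lower). The median log2 fold change of the 67 genes was 0.02 in C3, -0.04 in C6 and 0.02 for the mean, and that of all genes tested was 0.001, -0.01 and -0.005.

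**Figure D1:**
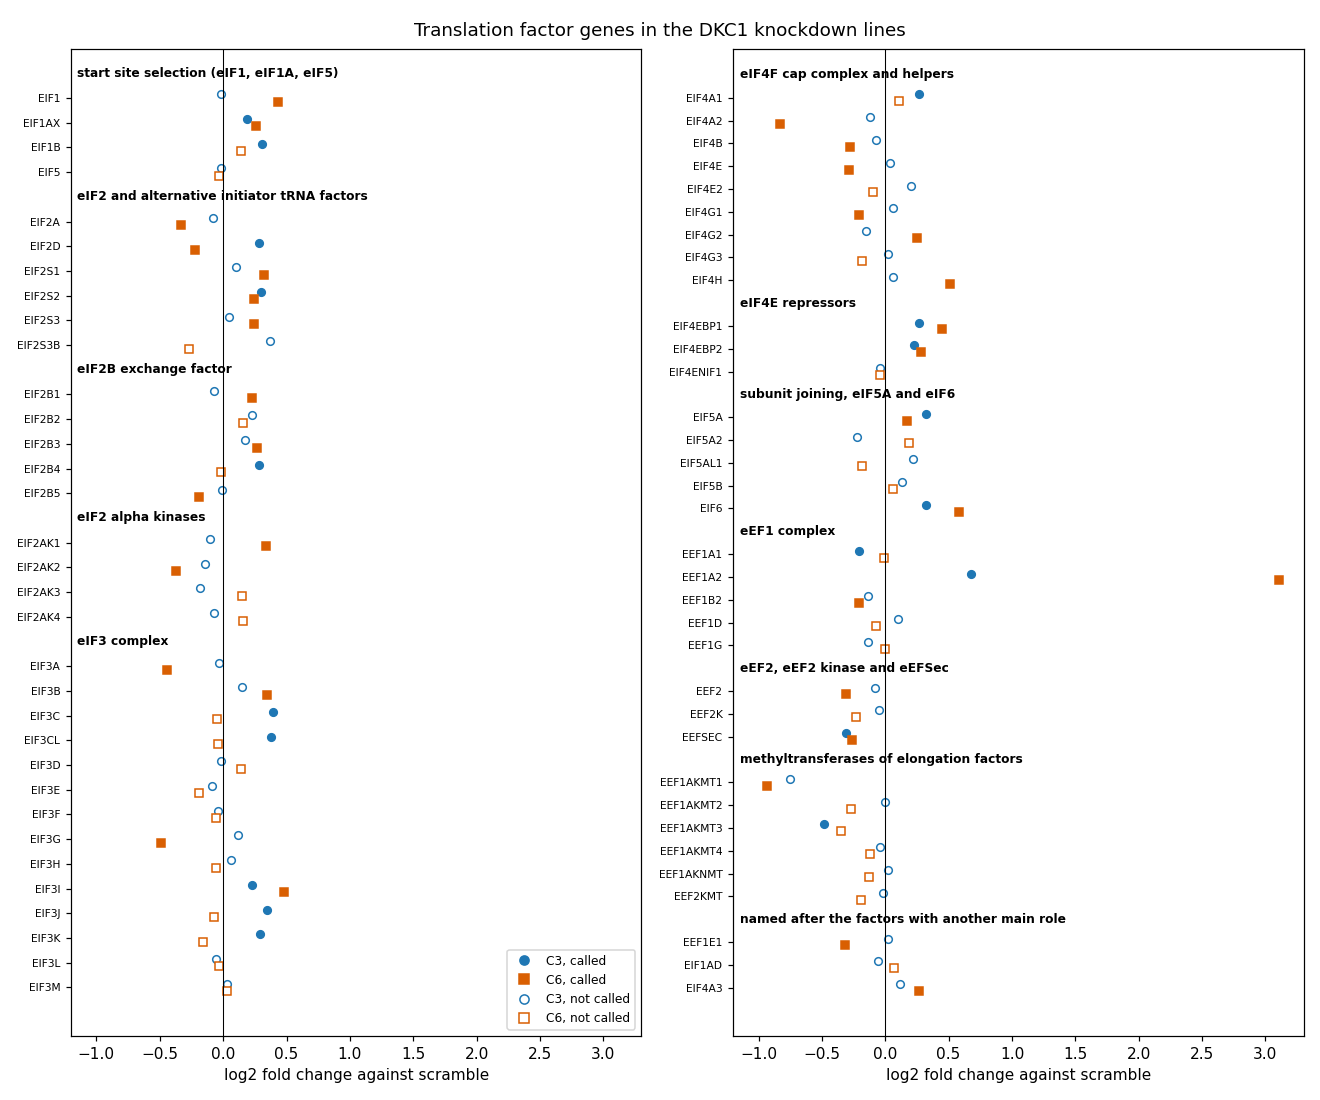
Log2 fold change against scramble of each of the 67 genes, by role, in C3 (circles) and C6 (squares); filled symbols were called and open ones were not. Most values lie between -0.5 and 0.6, and EEF1A2 stands apart at 0.68 in C3 and 3.11 in C6.

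Many calls were lost when a library was left out, which leaves a lone library in its group and fewer residual degrees of freedom. For the mean, calls over all genes tested became fewer in each such fit as well. With each library left out in turn, 6 of the 19 calls in C3, 19 of the 33 in C6 and 9 of the 29 for the mean held in all 6 fits. Without the second scramble library, 7 genes were higher and 6 lower for the mean, and without the first, 14 were higher and 4 lower. Without the second C3 library, 7 were higher and 0 lower in C3. Upper-quartile scaling gave 11 higher and 13 lower members for the mean and 15 higher and 22 lower in C6, and it moved the median of all genes to -0.053 for the mean and -0.071 in C6. When the 4 knockdown libraries were taken as 1 group, edgeR called 0 of the 67 genes and 12 had an unadjusted p under 0.05. Over all genes that fit called only 80, beside 4382 for the mean with the lines kept apart. DESeq2, with the lines kept apart, called 18 higher and 8 lower of the 67, and 3196 over all genes.

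Both lines were called higher for 8 genes, EEF1A2, EIF6, EIF4EBP1, EIF3I, EIF2S2, EIF4EBP2, EIF5A and EIF1AX, beside a background of 5.44% of all genes. The only gene called lower in both was EEFSEC, beside 4.59%. The only gene called with opposite signs was EIF2D, beside 4.93%. Of the rest, 9 were called in C3 alone and 23 in C6 alone, which does not by itself show that the lines differ. Of all 13299 genes tested, 1239 were called in C3 alone and 4214 in C6 alone. The comparisons of C3 and of C6 share the scramble libraries. Among the genes described below, EIF2AK1, EIF2AK2, EIF2B1, EIF2S1, EIF3A, EIF3B and EIF3J overlap other genes in the annotation, and whether reads were counted by strand cannot be read from the sources used here.

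EEF1A2 changed most. It encodes the eEF1A form normally found in nerve and muscle, and lies at chr20:63488014-63499083. Its level was 33.3 and 32.8 CPM in scramble, 51.1 and 54.6 CPM in C3, and 284 and 285 CPM in C6. The 3 groups did not overlap, and C6 stood far above both others. The rise was 1.6-fold in C3 (log2 0.68 ± 0.07, SE, adjusted p = 3.4e-06) and 8.61-fold in C6 (3.11 ± 0.07, adjusted p = 1.8e-13), and C6 exceeded C3 by 2.43 ± 0.07 (adjusted p = 1.9e-12). Each of these calls held when any library was left out.

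EEF1A1, the form expressed in most tissues, lies at chr6:73515750-73521032 and took the most counts of the 67. Its level was 19400 and 18300 CPM in scramble, 15900 and 16600 CPM in C3, and 19200 and 18300 CPM in C6. Both C3 libraries lay below the other 4, and the C6 libraries lay within the scramble range. C3 differed from scramble by -0.21 ± 0.06 (adjusted p = 0.017), and C6 by -0.01 ± 0.06 (adjusted p = 0.94). The call in C3 was lost without the first scramble library or either C3 library (adjusted p up to 0.19). EEF1A1 made up between 1.587% and 1.978% of all counts in a library. Its neighbours had medians of -0.01 in C3 and -0.19 in C6. With these taken off EEF1A1 stood at -0.20 in C3 (adjusted p = 0.024), beside 0.18 in C6 (adjusted p = 0.023).

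Per kilobase, EEF1A2 stayed a small part of all eEF1A mRNA. With the longest matched GENCODE transcripts (4441 bases for EEF1A1 and 2014 for EEF1A2), its share of eEF1A was 0.377% and 0.394% in the scramble libraries, 0.704% and 0.719% in those of C3, and 3.16% and 3.32% in those of C6. With the shortest principal EEF1A1 transcript, of 1923 bases, the shares were 0.164% and 0.171%, 0.306% and 0.313%, and 1.4% and 1.46%. The transcripts of both genes shared no stretch of 100 bases, so reads of that length could be told apart.

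The genes around EEF1A2 were higher too. Of the 50 nearest tested genes on chromosome 20, 30 were higher and 1 lower in C3, with a median log2 fold change of 0.43, and 38 were higher and 2 lower in C6, with a median of 0.67. The largest rise among them was that of RTEL1 in C3, at 3.95, above that of EEF1A2, and that of PTK6 in C6, at 2.43, below that of EEF1A2. With the median of the 51 genes of its window taken off, EEF1A2 stood at 0.24 in C3 (adjusted p = 0.019), beside 2.41 in C6 (adjusted p = 3.1e-12).

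**Figure D2:**
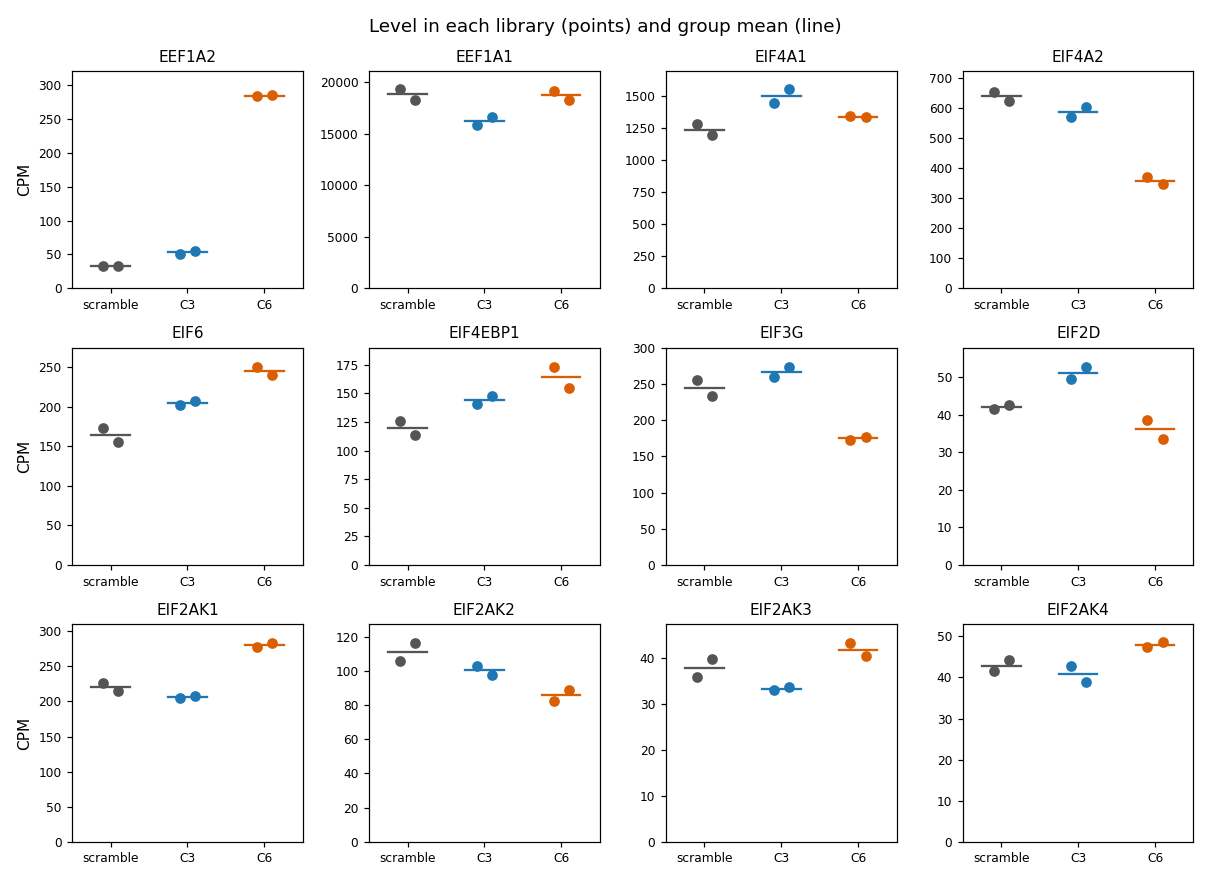
CPM of 12 genes in each library (points) with the group mean (line), each panel on its own axis from 0. EEF1A2 rises from about 33 CPM in scramble to 285 CPM in C6, EIF4A2 and EIF3G are low in C6, and EIF2D is high in C3 and low in C6.

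The remaining eEF1 subunits moved little. EEF1B2, EEF1D and EEF1G encode the exchange factor that reloads eEF1A with GTP. EEF1B2 stood at 967 and 884 CPM in scramble, 807 and 868 CPM in C3, and 816 and 780 CPM in C6. All 4 knockdown libraries were below both scramble libraries, and the call was made in C6 (-0.21 ± 0.06, adjusted p = 0.012) but not in C3 (-0.14, adjusted p = 0.12). It was lost without the first scramble or the second C6 library. The genes around EEF1B2 were lower in C6, with a median of -0.50, and with that median taken off the value of EEF1B2 in C6 turned to 0.29 (adjusted p = 0.0021). EEF1D and EEF1G were called in neither line.

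EEF2, which encodes the translocase, was lower in C6. It stood at 6090 and 6140 CPM in scramble, 5810 and 5780 CPM in C3, and 4730 and 5140 CPM in C6. The C6 libraries lay below all others, with a change of -0.31 ± 0.06 (adjusted p = 0.00054) that held without any single library, while the value in C3 was -0.08 (adjusted p = 0.38). EEF2K, the kinase that inhibits eEF2, was called in neither line. EEFSEC, which encodes the factor that carries selenocysteyl-tRNA, stood at 25.8 and 22.8 CPM in scramble, 19.5 and 19.9 CPM in C3, and 20.1 and 20.3 CPM in C6. All 4 knockdown libraries lay below both scramble libraries. Its changes were -0.31 ± 0.10 in C3 (adjusted p = 0.035), beside -0.26 ± 0.10 in C6 (adjusted p = 0.041), and DESeq2 called neither (adjusted p = 0.15 and 0.16). Leaving out the first scramble library or either C3 library ended both calls, and so did either C6 library for the call in C6. With the neighbours' medians taken off, the value in C6 was -0.25 (adjusted p = 0.056). EEFSEC overlaps RUVBL1 in the annotation, and the sources used here do not say whether the counting kept their reads apart.

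Of 6 methyltransferases of elongation factors, 2 were called lower and 0 higher for the mean by edgeR, beside 16.3% of all genes lower, and DESeq2 called neither of the 2. EEF1AKMT1, which methylates a lysine of eEF1A, had 86 and 67 counts in scramble, 54 and 46 counts in C3, and 36 and 45 counts in C6. Scramble lay above both lines, with a change of -0.93 ± 0.30 in C6 (adjusted p = 0.02) and -0.75 in C3 (adjusted p = 0.081). EEF1AKMT3 stood at 8.66 and 8.42 CPM in scramble, 6.17 and 6.05 CPM in C3, and 6.76 and 6.61 CPM in C6, and was called in C3 (-0.48 ± 0.15, adjusted p = 0.027). For the mean the adjusted p was 0.019 for EEF1AKMT1 and 0.02 for EEF1AKMT3. Without the first scramble library neither was called for the mean, and without the second EEF1AKMT3 was not. The calls in single lines also depended on libraries: EEF1AKMT1 in C6 was lost without the first C6 library too, and EEF1AKMT3 in C3 without any 1 of the scramble or C3 libraries. DESeq2 called neither gene for the mean (adjusted p = 0.11 and 0.14), nor EEF1AKMT1 in C6 or EEF1AKMT3 in C3 (0.1 and 0.17).

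Of 4 factors of start site selection, 2 were called higher and 0 lower in C3, and likewise in C6. The shares over all genes were 12.4% higher and 11.9% lower in C3, and 23.8% and 22.8% in C6. EIF1, whose protein guards the choice of the start codon, stood at 933 and 844 CPM in scramble, 843 and 916 CPM in C3, and 1230 and 1160 CPM in C6. Only C6 stood apart, with a rise of 0.43 ± 0.07 (adjusted p = 8.2e-05) that held without any single library. EIF1AX, which encodes eIF1A, stood at 232 and 227 CPM in scramble, 259 and 265 CPM in C3, and 292 and 256 CPM in C6. All knockdown libraries were above both scramble libraries, by 0.19 ± 0.06 in C3 (adjusted p = 0.041), beside 0.26 ± 0.06 in C6 (adjusted p = 0.0045). The call in C3 was lost without any 1 of the scramble or C3 libraries, that in C6 without the first C6 library. EIF1AX was not called in C3 with upper-quartile scaling (0.16, adjusted p = 0.1) or with the neighbours' medians taken off (0.18, adjusted p = 0.064). EIF1B rose in C3 (0.31, adjusted p = 0.0055, lost without the second C3 library), and EIF5 was called in neither line. With the neighbours' medians taken off, EIF5 was called lower in C6 (-0.16, adjusted p = 0.037).

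All 3 subunits of eIF2 were called higher in C6, beside 23.8% of all genes. EIF2S1, the alpha subunit that the stress kinases phosphorylate, rose by 0.32 (adjusted p = 0.0012), EIF2S2 by 0.24 (0.0062) and EIF2S3 by 0.24 (0.0023). EIF2S2, the beta subunit, stood at 520 and 495 CPM in scramble, 602 and 648 CPM in C3, and 631 and 571 CPM in C6. Every knockdown library was above both scramble libraries, and it was called in C3 too (0.30 ± 0.06, adjusted p = 0.0031). Both calls of EIF2S2 were lost without the second scramble library, that in C3 also without the second C3 library and that in C6 also without the first C6 library. EIF2S2 lies on chromosome 20, where its neighbours had medians of 0.14 and 0.19, and with these taken off it stood at 0.16 in C3 (adjusted p = 0.091), beside 0.05 in C6 (adjusted p = 0.58).

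The factors that can place initiator tRNA without eIF2, EIF2A and EIF2D, were called lower in C6, beside 22.8% of all genes. EIF2A fell by 0.33 on the log2 scale in C6 (adjusted p = 0.0026). EIF2D stood at 41.6 and 42.7 CPM in scramble, 49.7 and 52.7 CPM in C3, and 38.7 and 33.7 CPM in C6. C3 lay above and C6 below the scramble libraries, with changes of 0.28 ± 0.08 (adjusted p = 0.023) and -0.22 ± 0.09 (adjusted p = 0.045). The difference between the lines, C6 minus C3, was -0.50 ± 0.08 (adjusted p = 0.00016). That difference held without any single library, whereas the call in C3 was lost without any 1 of the scramble or C3 libraries and the call in C6 without any 1 library but the first of C6. DESeq2 called neither line against scramble (adjusted p = 0.079 and 0.12). EIF2D overlaps RASSF5 in the annotation. EIF2S3B had 8 to 21 counts and was not called.

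Of the 5 subunits of eIF2B, the exchange factor for eIF2, 1 was called in C3 and 3 in C6, beside 24.3% and 46.7% of all genes. EIF2B4 rose in C3 by 0.28 (adjusted p = 0.029). EIF2B1 and EIF2B3 rose in C6 by 0.23 (adjusted p = 0.016) and 0.27 (adjusted p = 0.044), and EIF2B5 fell by 0.19 on the log2 scale (adjusted p = 0.048). All 4 calls depended on single libraries: EIF2B5 was lost without any 1 of the 6, EIF2B4 without the second scramble or either C3 library, EIF2B1 without the second scramble or the first C6 library, and EIF2B3 without the second scramble or either C6 library. DESeq2 kept the call of EIF2B1 and not those of EIF2B4, EIF2B3 and EIF2B5 (adjusted p = 0.12, 0.13 and 0.12), and upper-quartile scaling kept that of EIF2B5 only. With the neighbours' medians taken off, EIF2B4 in C3 and EIF2B1 in C6 (0.20 and 0.13, adjusted p = 0.13 and 0.17) were not called, and EIF2B5 in C6 turned to 0.03 (adjusted p = 0.81).

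The 4 eIF2 kinases were not called in C3, and in C6 1 was higher and 1 lower. Of all genes 24.3% were called in C3, and 23.8% were higher and 22.8% lower in C6. EIF2AK1, the heme-regulated kinase HRI, stood at 226 and 215 CPM in scramble, 205 and 208 CPM in C3, and 277 and 283 CPM in C6. C6 lay above the other 4 libraries, by 0.34 ± 0.06 (adjusted p = 0.00017), and the value in C3 was -0.10 ± 0.06 (adjusted p = 0.23). Its neighbours on chromosome 7 were higher as well, with a median of 0.44 in C6, and with this taken off the value was -0.10 (adjusted p = 0.19).

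EIF2AK2, the double-stranded RNA sensor PKR, stood at 106 and 116 CPM in scramble, 103 and 97.5 CPM in C3, and 82.3 and 88.8 CPM in C6. The groups formed a descending order without overlap, and the fall was called in C6 (-0.37 ± 0.07, adjusted p = 0.00056) and not in C3 (-0.14 ± 0.07, adjusted p = 0.16). EIF2AK3, the endoplasmic reticulum kinase PERK, stood at 35.8 and 39.6 CPM in scramble, 32.9 and 33.6 CPM in C3, and 43.2 and 40.3 CPM in C6. C3 was below and C6 above scramble, by -0.18 ± 0.08 (adjusted p = 0.14) and 0.15 ± 0.08 (adjusted p = 0.17). EIF2AK4, the amino acid sensor GCN2, stood at 41.5 and 44.3 CPM in scramble, 42.7 and 39 CPM in C3, and 47.5 and 48.5 CPM in C6, with changes of -0.07 ± 0.08 (adjusted p = 0.58) and 0.16 ± 0.08 (adjusted p = 0.11). Its C3 libraries overlapped scramble and its C6 libraries did not.

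Between the lines, all 4 kinases were called, beside 49.2% of all genes. EIF2AK1, EIF2AK3 and EIF2AK4 were higher in C6 than in C3, by 0.44, 0.33 and 0.23, and EIF2AK2 was lower, by -0.23. The calls of EIF2AK1 and EIF2AK3 held without any single library. That of EIF2AK2 was lost without the first C3 or the first C6 library, and that of EIF2AK4 without the second C3 or either C6 library and with DESeq2 (adjusted p = 0.087). With the neighbours' medians taken off, EIF2AK1 stood at 0.02 (adjusted p = 0.81).

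The 14 genes of eIF3 did not move as a block. In C3, 5 were higher and 0 lower, and in C6 2 were higher and 2 lower (2 and 4 by upper-quartile scaling). Of all genes 12.4% were higher and 11.9% lower in C3, and 23.8% and 22.8% in C6. EIF3C and EIF3CL, whose transcripts are near-identical, are counted separately, and both are among the 5 higher in C3. EIF3I stood at 220 and 203 CPM in scramble, 243 and 253 CPM in C3, and 293 and 297 CPM in C6. The 3 groups did not overlap, with rises of 0.23 ± 0.06 (adjusted p = 0.011) and 0.48 ± 0.06 (adjusted p = 1.1e-05), of which the call in C3 was lost without the second scramble or the second C3 library. EIF3G, whose protein sits with that of EIF3I in the same module, stood at 256 and 233 CPM in scramble, 260 and 273 CPM in C3, and 173 and 177 CPM in C6. C6 lay below the other 4 libraries, by -0.49 ± 0.06 (adjusted p = 1.4e-05), and C3 was not called (0.12 ± 0.06, adjusted p = 0.17). C6 minus C3 was -0.61 ± 0.06 (adjusted p = 1.1e-06). EIF3G overlaps P2RY11 in the annotation.

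EIF3A, the largest eIF3 subunit, stood at 782 and 825 CPM in scramble, 791 and 785 CPM in C3, and 587 and 599 CPM in C6. Only C6 was low (-0.44 ± 0.06, adjusted p = 1.6e-05). EIF3B, the other scaffold subunit, was higher in C6 by 0.35 (adjusted p = 0.00026), and its neighbours on chromosome 7 had a median of 0.46. With that median taken off, EIF3B stood at -0.12 in C6 (adjusted p = 0.15).

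EIF3C, EIF3CL, EIF3J and EIF3K were higher in C3. EIF3C stood at 292 and 285 CPM in scramble, 374 and 383 CPM in C3, and 274 and 285 CPM in C6. Its rise in C3 was 0.39 ± 0.06 (adjusted p = 0.00012). EIF3C and EIF3CL are near-identical copies: 95.3% of the 100-base windows of EIF3CL also occur in EIF3C. The sources used here do not say how reads were divided between them. With both summed, the value in C3 was 0.39 (adjusted p = 0.00013). EIF3J, which encodes a loosely bound subunit, rose by 0.35 in C3 (adjusted p = 0.00063). EIF3K stood at 96.3 and 93.6 CPM in scramble, 113 and 120 CPM in C3, and 86.2 and 83.3 CPM in C6. C3 lay above and C6 below scramble, by 0.29 ± 0.06 (adjusted p = 0.0034, lost without the second C3 library) and -0.16 ± 0.07 (adjusted p = 0.051), and C6 minus C3 was -0.46 ± 0.06 (adjusted p = 3e-05).

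Among the 9 genes of the cap complex and its helpers, 1 was called in C3, and in C6 2 were higher and 4 lower. Of all genes 24.3% were called in C3, and 23.8% were higher and 22.8% lower in C6. EIF4A2 changed most. It stood at 656 and 623 CPM in scramble, 570 and 604 CPM in C3, and 371 and 346 CPM in C6. C6 lay far below the other 4 libraries, a 1.78-fold fall (-0.83 ± 0.06, adjusted p = 5e-08), and C3 was slightly below scramble (-0.12 ± 0.06, adjusted p = 0.16). The genes around it on chromosome 3 had a median of -0.44 in C6, and with this taken off EIF4A2 stood at -0.39 (adjusted p = 0.00013).

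EIF4A1, the gene of the other helicase, stood at 1280 and 1190 CPM in scramble, 1440 and 1550 CPM in C3, and 1340 and 1330 CPM in C6. Each knockdown library was above both scramble libraries, with a rise of 0.27 ± 0.06 in C3 (adjusted p = 0.0036), beside 0.11 ± 0.06 in C6 (adjusted p = 0.14). The call in C3 was lost without the second scramble or the second C3 library. The transcripts of both helicases shared no window of 100 bases.

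EIF4H and EIF4B encode the helpers of the helicase, and they moved apart in C6. EIF4H stood at 365 and 349 CPM in scramble, 372 and 372 CPM in C3, and 503 and 516 CPM in C6, a rise of 0.51 ± 0.06 in C6 (adjusted p = 3e-06) beside 0.06 in C3 (adjusted p = 0.49). Its neighbours on chromosome 7 had a median of 0.52 in C6, and with that taken off the value was -0.01 (adjusted p = 0.96). EIF4B fell by 0.28 on the log2 scale in C6 (adjusted p = 0.00062). EIF4E, the cap-binding protein, fell by 0.29 (adjusted p = 0.0095, lost without the second scramble or the second C6 library), and EIF4G1, the scaffold, by 0.21 (adjusted p = 0.0096, lost without the second scramble or the first C6 library). EIF4G2, a scaffold that lacks the site for eIF4E, rose by 0.25 (adjusted p = 0.0015). The neighbours of EIF4G1, near EIF4A2 on chromosome 3, had a median of -0.34, and with this taken off EIF4G1 stood at 0.13 (adjusted p = 0.12).

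Both measured 4E-binding protein genes were called higher in both lines, beside 5.44% of all genes. EIF4EBP1 stood at 126 and 114 CPM in scramble, 141 and 148 CPM in C3, and 173 and 155 CPM in C6. The groups did not overlap, with rises of 0.27 ± 0.07 in C3 (adjusted p = 0.013), beside 0.45 ± 0.07 in C6 (adjusted p = 0.00011). The call in C3 was lost without the second scramble or the second C3 library. In C6 its neighbours had a median of 0.37, and with this taken off it stood at 0.08 (adjusted p = 0.4).

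EIF4EBP2 stood at 106 and 106 CPM in scramble, 131 and 118 CPM in C3, and 128 and 129 CPM in C6. All 4 knockdown libraries were above scramble, by 0.23 ± 0.07 (adjusted p = 0.018) and 0.28 ± 0.07 (adjusted p = 0.003), and its neighbours had medians of 0.03 and 0. The call in C3 was lost without either scramble library or the first C3 library. The levels are of mRNA, and the phosphorylation that sets the activity of these repressors was not measured. EIF4ENIF1, whose protein carries eIF4E into the nucleus, stood between 12.3 and 13.5 CPM in all libraries and was called in neither line.

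EIF6, whose protein keeps the large subunit from joining too early and takes part in its maturation, rose in both lines. It stood at 173 and 156 CPM in scramble, 203 and 208 CPM in C3, and 250 and 240 CPM in C6. The groups did not overlap, with rises of 0.32 ± 0.06 (adjusted p = 0.0015) and 0.58 ± 0.06 (adjusted p = 3e-06), and both calls held without any single library. EIF6 lies at chr20:35278906-35284772, its neighbours had medians of 0.19 and 0.22, and with these taken off it stood at 0.14 in C3 (adjusted p = 0.14), beside 0.35 in C6 (adjusted p = 0.00042).

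EIF5A, which encodes the hypusine-bearing factor that relieves stalled ribosomes, stood at 834 and 766 CPM in scramble, 972 and 1030 CPM in C3, and 912 and 886 CPM in C6. All knockdown libraries were above scramble, by 0.32 ± 0.06 in C3 (adjusted p = 0.0013), beside 0.17 ± 0.06 in C6 (adjusted p = 0.035). The call in C3 held without any single library, and that in C6 was lost without any 1 library but the first of scramble, with upper-quartile scaling (0.11, adjusted p = 0.19), and with the neighbours' medians taken off (0.15, adjusted p = 0.067). Its paralog EIF5A2 was called in neither line, and EIF5AL1 had 11 to 25 counts. EIF5B, the factor of subunit joining, was not called.

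Of the genes that share the naming but have another main role, EIF4A3, the core of the exon junction complex, rose by 0.27 in C6 (adjusted p = 0.005, lost without the second scramble library and, at 0.18, with the neighbours' medians taken off, adjusted p = 0.055). EEF1E1, a scaffold of the tRNA synthetase complex, fell by 0.32 on the log2 scale in C6 (adjusted p = 0.0085, lost without the first scramble or the second C6 library).

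C6 and C3 differed directly in 36 of the 67 genes, 17 higher and 19 lower in C6, or 53.7%, beside 49.2% of all genes (25.1% higher and 24.1% lower). The largest differences were those of EEF1A2 (2.43), EIF4A2 (-0.71 ± 0.06, adjusted p = 1.9e-07), EIF3G (-0.61), EIF2D (-0.50), EIF3K (-0.46) and EIF4H (0.45 ± 0.06, adjusted p = 8.4e-06). In 18 of the 36 genes the call held whichever library was left out, these 6 among them. Of the cap complex genes 8 of 9 differed, 2 higher and 6 lower in C6, and of the eIF3 genes 9 of 14, 3 higher and 6 lower. The lower eIF3 genes include the near-identical copies EIF3C and EIF3CL, each counted. With the neighbours' medians taken off, 1 cap complex gene was higher and 4 were lower, 1 eIF3 gene was higher and 8 were lower, and EIF4H stood at -0.10 (adjusted p = 0.15).

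Some of the largest changes moved with their chromosomal surroundings. The median log2 fold change of the 51 tested genes centred on a member was beyond 0.3 in size for 1 gene in C3 and 9 in C6. In C3 this was EEF1A2. In C6 the medians were 0.70 at EEF1A2, 0.52 at EIF4H, 0.46 at EIF3B, 0.44 at EIF2AK1 and 0.37 at EIF4EBP1, and -0.50 at EEF1B2, -0.44 at EIF4A2, -0.34 at EIF4G1 and -0.31 at EIF4E2. All but EIF4E2 were called in C6, in the direction of their neighbours. With the medians taken off in all genes, 16 members were higher and 14 lower in C6, and 13 higher and 3 lower in C3. EIF3A, EIF3G, EIF3I, EIF4EBP2, EEF2, EIF1 and EIF2AK2, whose neighbours had medians of 0.10 or less in size, were still called in C6. With a shift that small, its removal could change their values little.

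**Figure D3:**
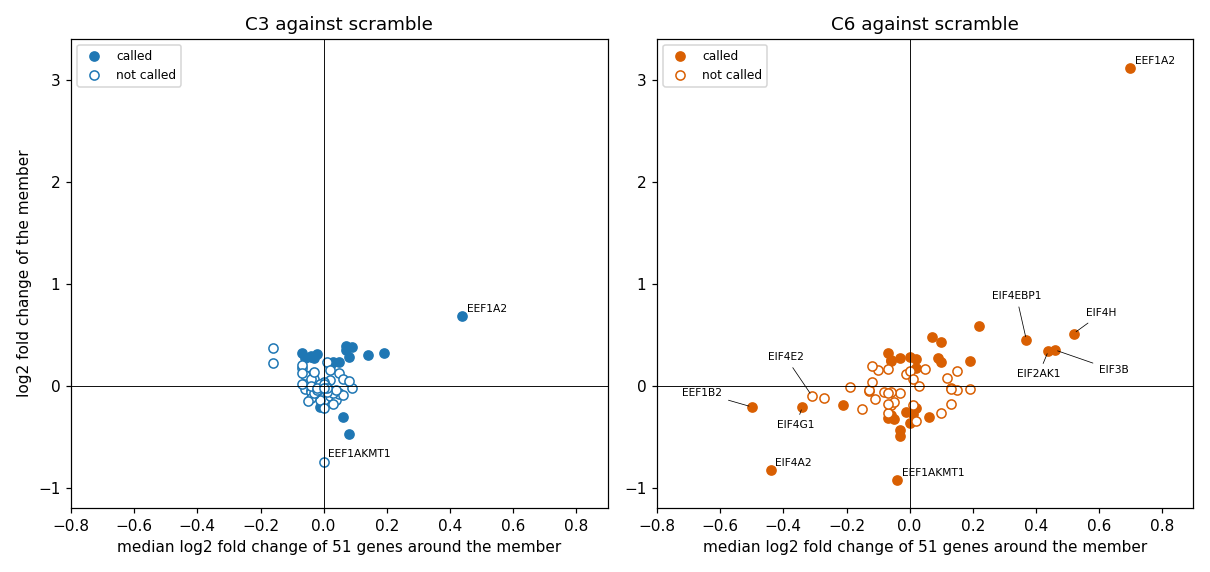
Each member's log2 fold change (vertical axis) against the median log2 fold change of the 51 genes around it (horizontal axis), in C3 and C6; filled points were called. In C6, 9 members lie beyond 0.3 on the horizontal axis, with EEF1A2 far above its neighbours and EIF4H, EIF3B and EIF2AK1 level with theirs.

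In C6 the median of the genes with a pyrimidine start was below that of the others, a difference that was not tested. Of the 13, 1 was higher (EIF2S3) and 6 were lower (EEF1B2, EEF2, EIF2A, EIF2D, EIF4A2 and EIF4B) in C6, with a median log2 fold change of -0.21. Of the 39 members with another start, 13 were higher and 6 lower, with a median of 0.07. In C3 the counts were 2 higher and 1 lower (median -0.04) against 10 higher and 1 lower (median 0.06). Over all genes tested 23.8% were higher and 22.8% lower in C6, and 12.4% and 11.9% in C3. The calls among all genes with such a start were not counted. Of the 6 lower in C6, EEF1B2 and EIF4A2 lay among neighbours with medians of -0.50 and -0.44. With these taken off EEF1B2 turned to 0.29 and EIF4A2 stood at -0.39. The 10 members on a list of mRNAs known for 5′ TOP tracts, which overlaps these 13, had 1 higher and 3 lower in C6 and 1 higher and 1 lower in C3, with EEF1A2 the higher one in both. The 5′ TOP tract acts on translation, which was not measured, and a run of letters at a start does not show that it is used in these cells.

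Of the 5 genes that hold an H/ACA RNA, 0 were higher and 3 lower in C6 (EEF1B2, EIF3A and EIF4A2; median -0.21), and 1 was higher in C3 (EIF4A1). Of the 62 without one, 18 were higher and 12 lower in C6. Among all 76 tested genes that hold an H/ACA RNA, 13 were higher and 15 lower in C6, with a median of -0.03, and 7 higher and 8 lower in C3. EIF5 was called in neither line, and EEF1B2 and EIF4A2 lie among neighbours that were lower in C6.

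**Figure D4:**
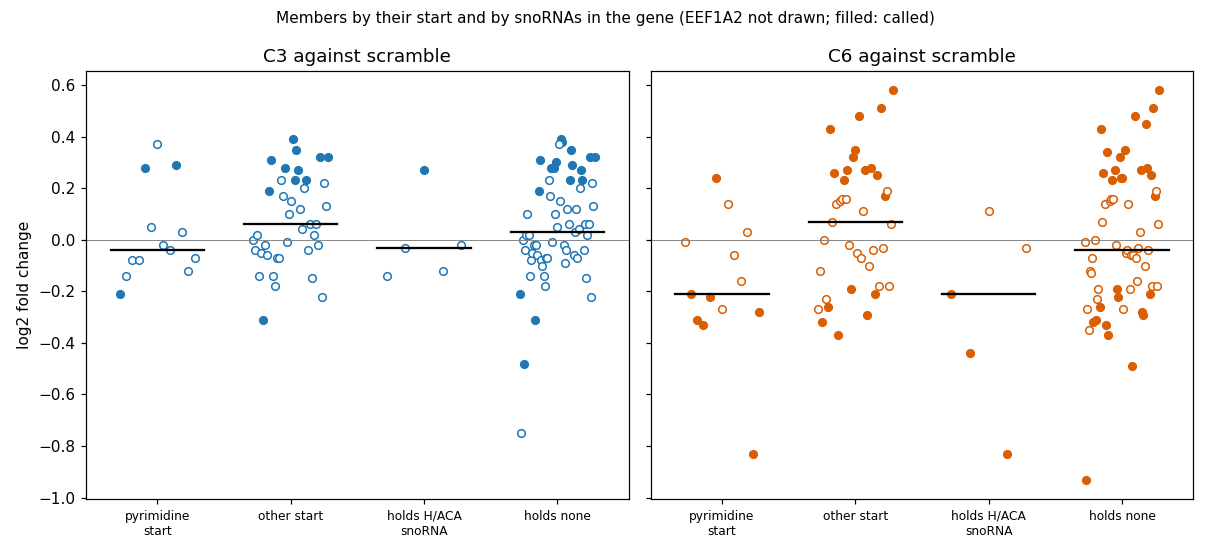
Log2 fold change against scramble of the members by kind of start and by whether the gene holds an H/ACA small nucleolar RNA; filled points were called, lines are medians, and EEF1A2 is not drawn. In C6 the line of the 13 pyrimidine-start genes is at -0.21 and that of the 39 others at 0.07.

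The partners of these factors, 114 genes in 7 lists of which 113 were tested, moved in both directions as well. For the mean of both lines 22 were higher and 11 lower, or 29.2%, beside the background of 32.9%. By line, 17 were higher and 4 lower in C3, and 23 higher and 28 lower in C6 (14 and 7, and 18 and 40, by upper-quartile scaling). The shares of all genes were 12.4% higher and 11.9% lower in C3, and 23.8% and 22.8% in C6. For the mean they were 16.6% and 16.3%. These shares are the background for the counts of each list below. Without the second scramble library 12 were higher and 3 lower for the mean, without the first scramble or the second C3 library 6 were lower, while upper-quartile scaling gave 16 higher and 19 lower.

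Of 18 genes of mTORC1 and MNK signalling, 6 were higher and 1 lower in C3, 4 and 4 in C6, and 5 and 0 for the mean by edgeR (4 and 2 for the mean by upper-quartile scaling). Called for the mean were thus 27.8%, beside 32.9% of all genes. RHEB, the GTPase that switches mTORC1 on, had means of 86, 116 and 189 CPM in scramble, C3 and C6 (0.43 and 1.14, adjusted p = 0.00053 and 1.2e-08), among neighbours with medians of 0.44 and 0.57. SESN2, a sensor that restrains mTORC1, stood at 80.5, 98.2 and 140 CPM (0.29 and 0.80, adjusted p = 0.0046 and 1.3e-07), with neighbours at 0.04 and 0. RPS6KB2, an S6 kinase, rose by 0.31 in C3 and 0.56 in C6. DDIT4, another inhibitor of the pathway, rose in C3 (0.41, adjusted p = 0.00012) and was not called in C6 (0.10, adjusted p = 0.18), and C6 minus C3 was -0.31 (adjusted p = 0.00047). The rises so included genes of activators and of inhibitors.

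Of 15 partners of the eIF2 kinases and the stress response, 1 was higher and 1 lower in C3, 4 and 5 in C6, and 3 and 4 for the mean. With the neighbours' medians taken off, 2 were higher and 1 lower for the mean. DNAJC3, an inhibitor of PKR and PERK, fell by 0.33 for the mean (adjusted p = 0.00014), by 0.19 in C3 and by 0.48 in C6, and stood at -0.07 with its neighbours taken off (adjusted p = 0.33). ATF5, a stress transcription factor, fell in C6 (-0.51, adjusted p = 6.7e-05) and was not called in C3 (-0.21, adjusted p = 0.053). TRIB3, a target of ATF4, rose in C6 (0.44, adjusted p = 3.8e-05) and was not called in C3 (0.16, adjusted p = 0.081), and its mean of 0.30 went to 0.11 with the neighbours taken off (adjusted p = 0.16). PPP1CA, a catalytic subunit of the phosphatase that reverses eIF2 phosphorylation, rose by 0.25 for the mean (adjusted p = 0.0045, lost without the second scramble library), and its values were 0.25 in C3 and 0.24 in C6.

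Of 17 tested genes of termination, recycling and ribosome rescue, 2 were higher and 1 lower in C3, 6 and 3 in C6, and 5 and 1 for the mean (4 and 2 for the mean by upper-quartile scaling). HBS1L, a partner of Pelota in freeing stalled ribosomes, fell, with means of 84.1, 64.4 and 44.8 CPM in scramble, C3 and C6 (-0.38 and -0.91, adjusted p = 0.0011 and 1.3e-07). PELO, which encodes Pelota, rose in C6 (0.60, adjusted p = 6e-05) and was not called in C3 (0.21, adjusted p = 0.11), and its mean of 0.40 went to 0.13 with the neighbours taken off (adjusted p = 0.22). GTPBP2, a relative of HBS1L in ribosome rescue, stood at 74.2, 68.2 and 132 CPM, with a rise in C6 (0.83, adjusted p = 2.6e-07) and no call in C3 (-0.12, adjusted p = 0.25). GSPT1, the release factor eRF3a, rose by 0.20 in C3 and 0.32 in C6 (adjusted p = 0.015 and 0.00026).

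Of 30 cap, poly(A) and helicase partners, 4 were higher and 0 lower in C3, 4 and 11 in C6, and 4 and 3 for the mean. Between the lines 3 were higher and 13 lower in C6, beside 25.1% and 24.1% of all genes. For the mean the counts were 4 and 6 by upper-quartile scaling and 1 and 2 with the neighbours' medians taken off. ABCF2 rose by 0.54 in C3 and 0.79 in C6, among neighbours with medians of 0.44 and 0.59, and its mean of 0.66 went to 0.15 with these taken off (adjusted p = 0.063). PAIP2, which holds back the poly(A)-binding protein, rose by 0.29 in C3 and 0.33 in C6 (0.31 for the mean, adjusted p = 0.00068). DHX29, a helicase of scanning, rose in C6 (0.52, adjusted p = 3.1e-05) and was not called in C3 (0.12, adjusted p = 0.24). GIGYF2, a partner of the eIF4E homologue 4EHP, fell in C6 (-0.59, adjusted p = 9.2e-06) and was at 0.03 in C3 (adjusted p = 0.8). With the neighbours taken off, the means of DHX29 and GIGYF2, 0.32 and -0.28, went to 0.07 and -0.07, and the mean call of GIGYF2 was lost without the second scramble library.

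Of 14 genes of hypusine and diphthamide synthesis, which modify eIF5A and eEF2, 4 were higher and 0 lower for the mean by edgeR (2 and 1 by upper-quartile scaling). This is 28.6%, beside 32.9% of all genes called and 16.6% called higher. AMD1, DPH3 and DHPS were called higher in C6 (0.34, 0.41 and 0.24) and not in C3 (0.14, 0.17 and 0.15), and SRM in C3 (0.30) and not in C6 (0.09). For the mean DESeq2 did not call DPH3 (adjusted p = 0.061) or DHPS (0.15), and upper-quartile scaling did not call SRM (0.071) or DHPS (0.12). DHPS was called for the mean in 1 of the 6 fits without a library, when the second C3 library was left out, and DPH3 and SRM were lost without either scramble library or the second C3 library.

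Of 7 genes of selenocysteine incorporation, 1 was higher and 1 lower in C3, 0 and 3 in C6, and 0 and 1 for the mean (0 and 2 for the mean by upper-quartile scaling). The gene called for the mean was SECISBP2 (-0.18, adjusted p = 0.038, lost without any 1 library but the first of C6), which was lower in C3 (-0.22, adjusted p = 0.041) and not called in C6 (-0.14, adjusted p = 0.12). The mean values of SEPHS2, SECISBP2L and PSTK were -0.17, -0.09 and -0.17.

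Of 12 mitochondrial factors, 2 were higher and 0 lower in C3, 1 and 2 in C6, and 1 and 2 for the mean (0 and 2 for the mean and 1 and 7 in C6 by upper-quartile scaling). Between the lines 1 was higher and 8 were lower in C6, or 75%, beside 49.2% of all genes, and with the neighbours' medians taken off 0 were higher and 4 lower. GFM2 was higher in C6 (0.37, adjusted p = 0.00051) and GUF1 and MTRF1 lower (-0.60, adjusted p = 1.7e-05, and -0.66, adjusted p = 0.0039), while in C3 the values were -0.01, 0.06 and -0.10 and not called. For the mean, GFM2 was lost without any 1 of the 6 libraries, GUF1 without the second scramble library, and MTRF1 without any 1 library but the first of C6. DESeq2 called neither SECISBP2, GFM2 nor MTRF1 for the mean (adjusted p = 0.12, 0.092 and 0.22), and TACO1 stood at 0.18 (adjusted p = 0.066).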

How the data were processed

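RNA of 6 SW620 libraries was measured by stranded poly(A) sequencing with paired ends, per the labels' protocols. Per the file headers, the deposited table holds read counts per gene, which are whole and sum to a different total in each library. The submitters' processing notes name, in no stated order, DESeq2, HISAT2 2.1.0, StringTie 2.1.3b, Trimmomatic 0.38 and the build hg38. How reads of overlapping or near-identical genes were assigned cannot be read from the sources used here. StringTie estimates transcript abundance, so the whole numbers may be estimates rounded by the authors, which the tests treat as read counts.

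Libraries were grouped by title. The genotype tag of 1 C3 library reads as control, against its title. Counts were fitted with edgeR 4.0.16 in R 4.3.3 (quasi-likelihood, robust, TMM, filterByExpr), all 6 libraries as 3 groups with 3 residual degrees of freedom. Benjamini-Hochberg adjustment ran over 13299 genes, the threshold was an adjusted p of 0.05, and the steps were tested on simulated counts. CPM use the TMM-scaled library sizes, and errors of log2 fold changes are standard errors of the fit. Positions come from RefSeq GRCh38.p14 and small nucleolar RNAs and transcripts from GENCODE 29. The shift of neighbours is the running median of 51 tested genes, entered per line as an offset. Protein identity between paralogs was not analysed here, and shared 100-base windows of transcripts were used in its place.

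The members and all lists were chosen with earlier results of these data known. Any member could be named. In full were given EEF1A1, EEF1A2, the eIF2 kinases, the EIF4EBP genes, members called alike in both lines or with opposite signs, and the 6 largest differences between the lines, and of each partner list the 4 genes with the smallest p. Alternatives were RLE and upper-quartile scaling, no filter, a filter of 1 CPM in 2 libraries, DESeq2 1.42.0, a replicate block, only the groups compared, knockdown as 1 group, the neighbours' shift removed, copies summed, and each library left out.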

Additional observations from a re-analysis of the deposited data

Results flagged for a closer look

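The members below were called in the direct comparison of the knockdown lines, so their effects against scramble differed between C6 and C3 by edgeR's test of the difference. Values are log2 differences, C6 minus C3, and both lines are set against the same scramble libraries.

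Among elongation factors, EEF1A2 was higher in C6 by 2.43 and EEF1A1 by 0.21, while EEF2 (-0.23) and EEF1D (-0.17) were lower. In eIF2 and its regulators, EIF2S1 (0.22), EIF2S3 (0.19), EIF2B1 (0.29), EIF2AK1 (0.44), EIF2AK3 (0.33) and EIF2AK4 (0.23) were higher, and EIF2D (-0.50), EIF2A (-0.25), EIF2B4 (-0.30) and EIF2AK2 (-0.23) were lower. In eIF3, EIF3I (0.25), EIF3B (0.19) and EIF3D (0.16) were higher, and EIF3G (-0.61), EIF3K (-0.46), EIF3C (-0.44), EIF3CL (-0.43), EIF3J (-0.42) and EIF3A (-0.41) were lower. In the cap complex, EIF4H (0.45) and EIF4G2 (0.40) were higher, and EIF4A2 (-0.71), EIF4E (-0.33), EIF4E2 (-0.29), EIF4G1 (-0.28), EIF4B (-0.22) and EIF4A1 (-0.16) were lower. Of the rest, EIF1 (0.44), EIF5A2 (0.41), EIF6 (0.25) and EIF4EBP1 (0.18) were higher, and EEF1E1 (-0.34) was lower.

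Some of these differences depend on the setting. EIF4EBP1 was not called with upper-quartile scaling (adjusted p = 0.088), DESeq2 (0.072) or the replicate block (0.06), and with the neighbours' medians taken off it turned to -0.22 (0.019). In that setting EIF3B turned to -0.25. EIF4H (-0.10), EIF4G1 (0.03), EIF4E (-0.19), EIF2A (-0.15), EIF3D (0.09), EIF4E2 (-0.06) and EIF2AK1 (0.02) were not called. EIF3D was not called with upper-quartile scaling (0.087), nor EIF2AK4 with DESeq2 (0.087).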

How the results depend on the processing

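Counts of called members kept within 1.5 times under RLE scaling, no filter, the 1 CPM filter, DESeq2, only the groups compared, the neighbours' shift removed and copies summed. For the mean of both lines, upper-quartile scaling gave 11 members higher, and with knockdown as 1 group 0 were higher and 0 lower. With knockdown as 1 group, 80 genes were called over all genes tested. The partner genes had 19 lower with upper-quartile scaling, and 0 higher and 0 lower with knockdown as 1 group.

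Without each library in turn, members higher ranged from 7 to 16 and lower from 0 to 3 in C3, higher from 13 to 19 and lower from 9 to 12 in C6, higher from 7 to 19 and lower from 4 to 13 for the mean, and higher from 10 to 17 and lower from 14 to 21 between the lines. Partners ranged from 12 to 21 higher and 3 to 10 lower. A lone library is assumed to vary like the other groups, and fewer libraries leave fewer residual degrees of freedom.

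Removing the shift of neighbours changed the sign of the values below. In C6, EEF1A1 turned to 0.18 (adjusted p = 0.023), EEF1B2 to 0.29 (0.0021) and EIF4E2 to 0.21 (0.026). EIF4G1 (0.13), EIF4H (-0.01), EIF3B (-0.12), EIF2B5 (0.03) and EIF2AK1 (-0.10) were then not called. Before the removal EEF1A1 and EIF4E2 were not called in C6. For the mean, EEF1B2 turned to 0.07 (adjusted p = 0.35). Between the lines, EEF1B2 turned to 0.43 (adjusted p = 6.2e-05), EIF4EBP1 to -0.22 (0.019), EIF3B to -0.25 (0.0033) and EIF3L to -0.20 (0.0084). EIF4G1 (0.03) and EIF4H (-0.10) were then not called. EEF1B2 and EIF3L had not been called between the lines before the removal.

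The replicate block gave 17 members higher and 11 lower for the mean, 15 and 2 in C3, 16 and 12 in C6, and 19 and 8 among partners. Within each group, the difference between the first and the second library was taken for each gene. Across genes these differences correlated at -0.16 (scramble and C3), 0.15 (scramble and C6) and -0.1 (C3 and C6). The values were weak and of mixed sign, and gave no clear sign that libraries of the same number form pairs. At these depths genes with few counts, such as EIF5AL1 and EIF2S3B, allow no call of a small change.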
